A study of Mus musculus with 4 samples.

Results

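The genes described here carry out or control the oxidation of long-chain fatty acids in mouse C2C12 myoblasts, a line of muscle precursor cells. They were a given list of 34 genes, namely the enzymes that activate fatty acids and carry them into mitochondria, the enzymes of beta-oxidation, and their regulators, and each was found in the count table through its Ensembl identifier. All 34 were among the 51826 identifiers listed, and 32 were among the 15467 genes with enough counts to be tested. The libraries formed 2 groups of 2. One came from C2C12 myoblasts treated for 6 h with recombinant GDF10, also called BMP3B, a signalling protein related to TGF-beta, and the other from C2C12 myoblasts treated for 6 h with vehicle. Both groups were kept in growth medium, had no stated genetic change, and were labelled as biological replicates of 1 cell line. The question was which transcripts differ after GDF10. No dose is given in the sources used here, and a protocol field names longissimus dorsi as the source of the RNA while the other labels name C2C12.

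Fatty acids enter this pathway as acyl-CoA thioesters made by acyl-CoA synthetases. A carnitine shuttle moves long chains across the mitochondrial membranes, and a repeated spiral of dehydrogenation, hydration, another dehydrogenation and thiolysis then removes acetyl units in the matrix, passing electrons to the respiratory chain through the electron transfer flavoprotein. In muscle the pathway is controlled by malonyl-CoA, which inhibits the outer-membrane step, and by the nuclear receptors PPAR-alpha and PPAR-delta with the coactivator PGC-1alpha.

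Total counts were 29944193 and 35057429 in the GDF10 libraries and 35597310 and 29641165 in the vehicle libraries. Every pair of libraries differed by more than sampling noise, with a chi-square of at least 13.8 per degree of freedom. Of 7 myoblast markers, 6 had counts in both groups, with a summed level of 2102 to 2106 CPM (counts scaled to library size) with GDF10 and 2035 to 2051 CPM with vehicle. Pax7, a defining marker of muscle stem cells, had 0 counts in all 4 libraries, although a label calls the cells by that name. Of cell types that burn or store fatty acids, 4 of 5 hepatocyte markers and 5 of 6 adipocyte markers had 0 counts in every library, and the summed adipocyte level reached at most 0.316 CPM with GDF10 and 0.135 CPM with vehicle. The 8 markers of mature fibres summed to 74.4 to 75.3 CPM with GDF10 and 59.7 to 69.7 CPM with vehicle. The 5 cardiomyocyte markers summed to 114 to 123 CPM with GDF10 and 106 to 122 CPM with vehicle. Nearly all of that sum was Tnnt2, with 121 and 114 CPM with GDF10 and 104 and 121 CPM with vehicle. Myh6, Nppa, Nppb and Tnni3 each had at most 0.901 CPM in any library. The 5 endothelial and epithelial markers summed to 6.21 to 6.71 CPM with GDF10 and 4.17 to 5.17 CPM with vehicle. The 5 immune markers summed to 3.44 and 3.39 CPM with GDF10, against 4.73 and 3.62 CPM with vehicle, so these groups did not overlap and GDF10 was the lower one. The myoblast, mature fibre, and endothelial and epithelial sums did not overlap either, and there GDF10 was the higher group. Most of the fibre sum was Mylpf, with 60.1 and 56.6 CPM with GDF10 and 44.6 and 53.7 CPM with vehicle. Most of the endothelial and epithelial sum was Krt8, with 5.94 and 6.14 CPM with GDF10 and 3.28 and 4.76 CPM with vehicle. Log2 fold changes were negative for Myf5 (-0.18), Myh1 (-0.28), Myh7 (-0.54) and Pecam1 (-0.27), and positive for the other tested genes of these lists. Of all single genes tested, 38.2% had groups that did not overlap. No marker passed the test described next, and their part in the results was not tested. In bulk RNA, fewer cells of a type and less RNA per cell cannot be told apart.

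None of the fatty acid oxidation genes passed the test of GDF10 against vehicle. In edgeR's quasi-likelihood test, with Benjamini-Hochberg adjustment over all genes and a threshold of 0.05, 0 of 32 members were called, against 0.162% of all genes tested. Adjusted p-values of the members ran from 0.825 to 0.9996. DESeq2 and limma-voom also called 0. An unadjusted p under 0.05 was reached by 2 of 32 members, Eci1 and Acot2, or 6.25% against 5.94% of all genes. Both were higher with GDF10, as were 2.44% of all genes at that p, and 0 members were lower, against 3.49%. The same unadjusted threshold was passed by 0 members in DESeq2, 2 in limma-voom and 1 in edgeR without robust dispersions. The shares of all genes in these fits are not given, so the counts cannot be set beside a background. In 26 of 32 members the 95% interval of the log2 fold change lay between -0.5 and 0.5, as it did in 54.1% of all genes. The 6 exceptions were Acads, Acsl1, Acot2, Cpt1b, Acsl6 and Ppargc1a, for which these libraries leave room for larger differences. How separate the cultures were is not stated, so the p-values reflect only how far these 4 libraries spread.

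The direction of the small differences was uneven. A positive log2 fold change was found in 23 of 32 members, or 71.9%, beside 50.8% of all genes tested, and the median was 0.052 beside 0.0029 for all genes. The groups did not overlap in 15 members, or 46.9%, against 38.2% of all genes. In 11 of them both GDF10 libraries lay above both vehicle libraries, or 34.4% against 18.8% of all genes, and in 4 both lay below, or 12.5% against 19.4%. The median absolute log2 fold change of the members was 0.097, beside a median standard error of 0.096. Among the 15 genes of the matrix spiral, its auxiliary steps and electron transfer, 14 were positive and 1 was negative, with a range of -0.039 to 0.23, whereas 3 of 5 synthetases were negative. These counts were not tested, and no single gene behind them passed. GDF10 replicate 1 lay furthest from the others: the median member stood 0.11 above its own 4-library mean there on the log2 scale, against 0.00087 in GDF10 replicate 2 and -0.025 and -0.057 in vehicle replicates 1 and 2. Across genes, Spearman's rho between exon length and the departure from the mean was -0.33 in GDF10 replicate 1 and 0.080 in GDF10 replicate 2, against 0.11 and 0.19 in the vehicle libraries. For GC content, rho was 0.15 and 0.17 in GDF10 replicates 1 and 2, against -0.15 and -0.19 in vehicle replicates 1 and 2. The GC correlations thus had opposite signs in the groups. The part of either trend in the members' directions was not tested. In limma on log2 CPM, 28 of 32 members were positive with the length trend removed and 24 without removal, with medians of 0.069 and 0.068. Of all genes, 54.7% were positive with that trend removed and 50.6% without removal, with medians of 0.018 and 0.0020. With the GC trend removed instead, 24 members were positive and their median was 0.081, beside 52.7% and 0.011 for all genes. In edgeR the members' median was 0.14 without GDF10 replicate 2 and 0.030 without GDF10 replicate 1.

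**Figure D1:**
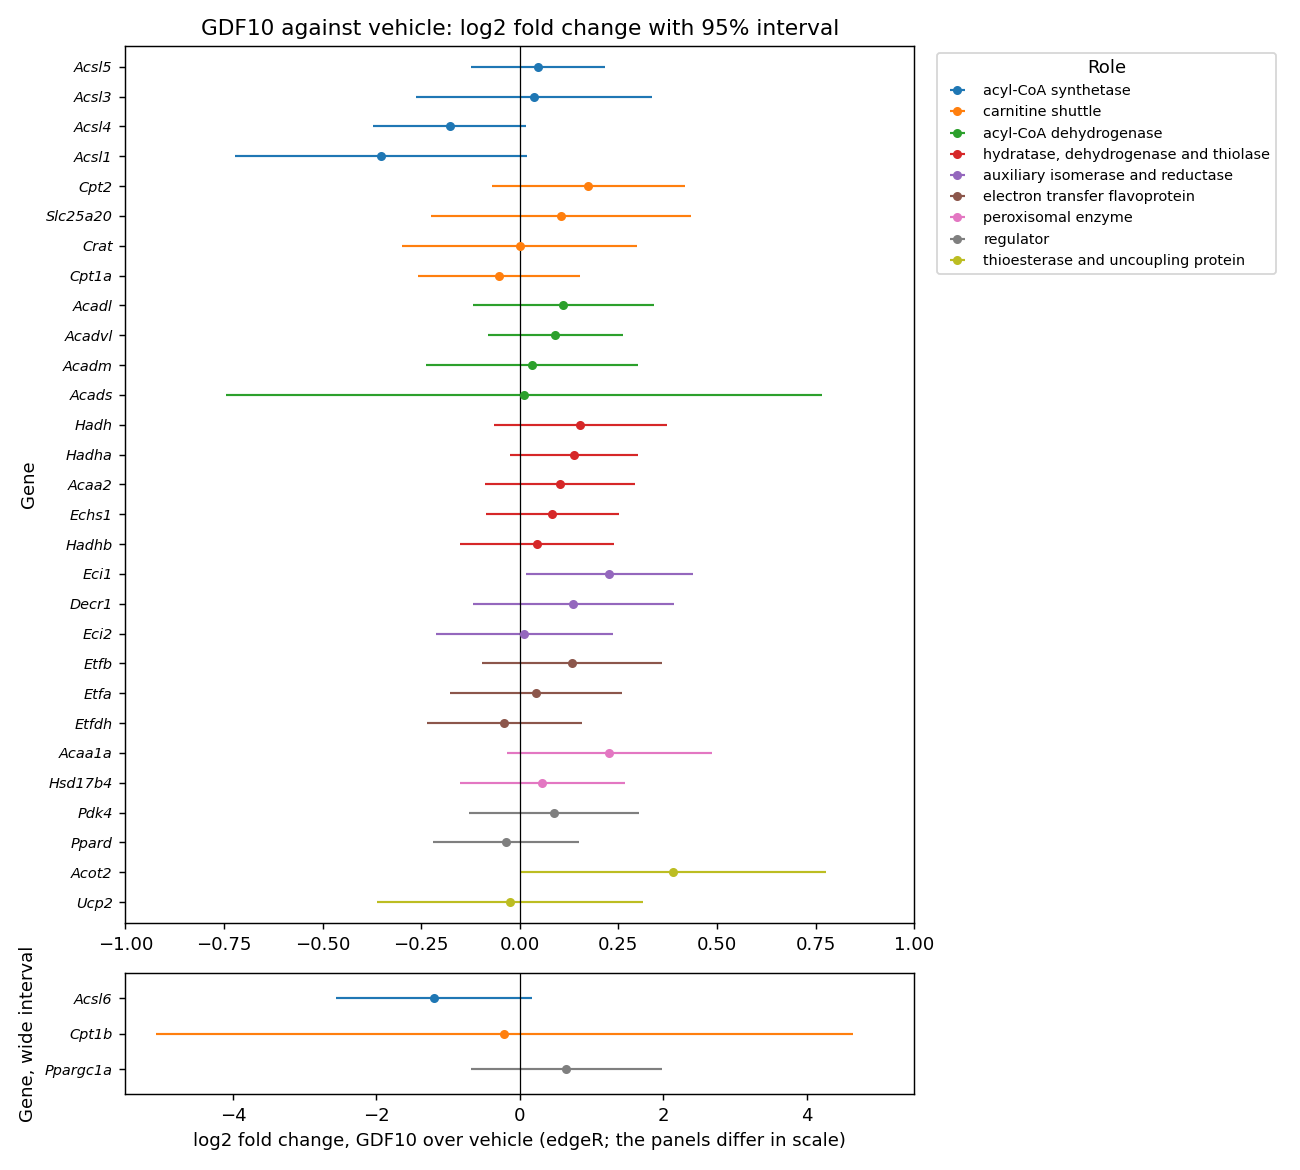
Log2 fold change of GDF10 over vehicle for the 32 tested fatty acid oxidation genes, coloured by role, with points for the edgeR estimate and bars for its 95% interval; 3 genes with wide intervals have their own panel and scale. All intervals but those of Eci1 and Acot2 cross 0, and 26 lie between -0.5 and 0.5.

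Levels were compared between genes as RPKM, counts scaled to library size and to the length of annotated exons. The 34 genes fell into 20 at 10 RPKM or more, 9 between 1 and 10 RPKM and 5 under 1 RPKM. Together they held 2138 and 2056 CPM in the GDF10 libraries and 2026 and 2017 CPM in the vehicle libraries, or 0.201% to 0.214% of all counts. The highest member was Acaa2, the mitochondrial thiolase of the last step of the spiral, with 84.7 and 76.5 RPKM with GDF10 and 74.0 and 76.0 RPKM with vehicle. Next in order came Acadl, Etfa and Etfb at means of 52.0, 51.3 and 48.3 RPKM over the 4 libraries, whose ranges overlapped, and then Acadvl at 41.8 RPKM. These 5 genes also held the first 5 places when the longest transcript replaced the union of exons as the length. Below them the order rests on the length used, since 10 members moved by more than 3 places, Hadha from place 12 to place 6 among them.

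**Figure D2:**
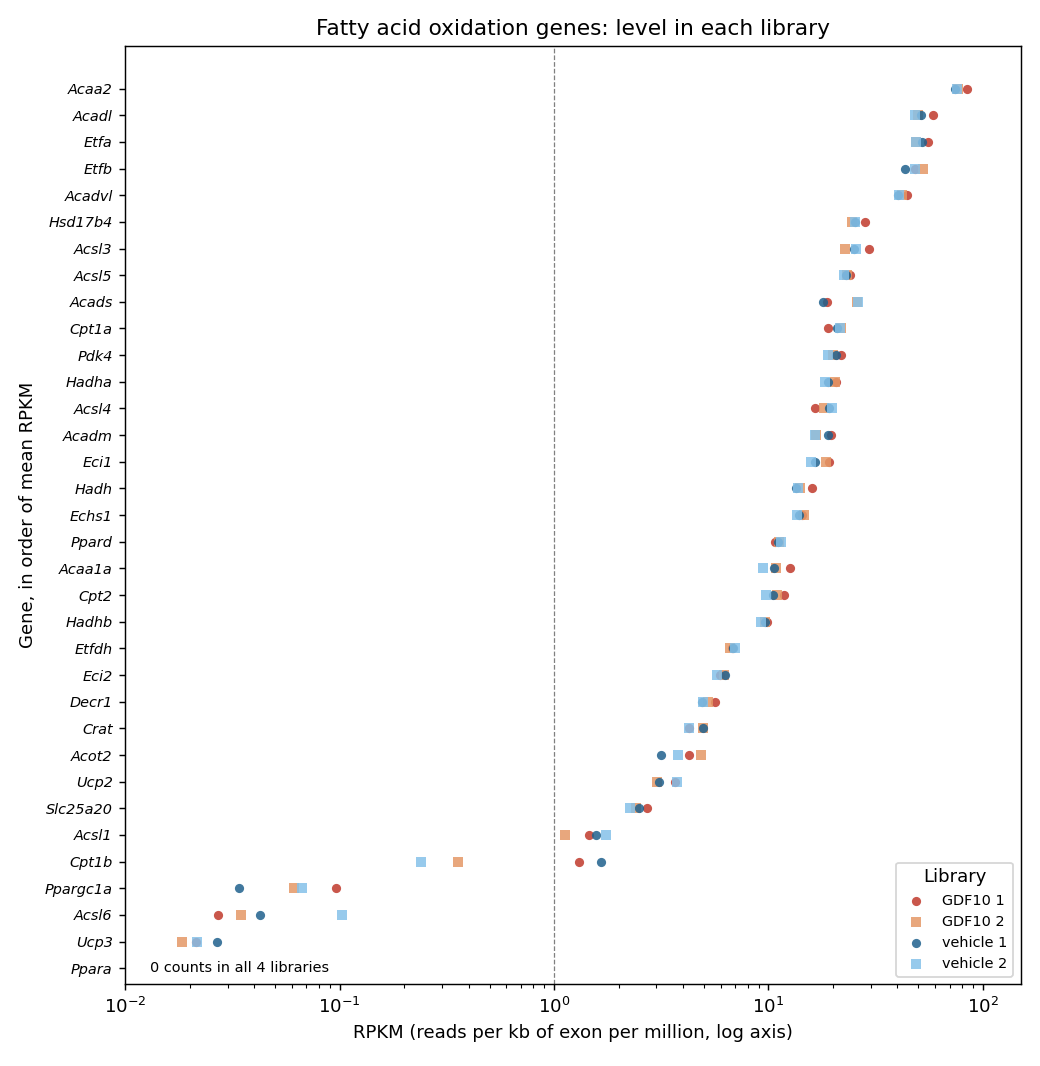
Level of each of the 34 genes in each library, in RPKM on a log axis, ordered by mean; circles are replicate 1, squares replicate 2, and the dashed line marks 1 RPKM. From Acaa2 down to Acsl1 the 4 libraries lie close together, whereas Cpt1b splits by replicate number and Ppara has no counts.

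Of the 5 acyl-CoA synthetases, which attach coenzyme A to long chains, 3 carried most of the signal. Acsl3 had 29.4 and 22.8 RPKM with GDF10 and 25.2 and 25.7 RPKM with vehicle, and its groups overlapped. Acsl5 had 24.0 and 23.2 RPKM with GDF10 and 23.0 and 22.6 RPKM with vehicle, a log2 fold change of 0.046 with both GDF10 values just above both vehicle values. Acsl4, which prefers arachidonic acid, had 16.5 and 18.2 RPKM with GDF10 against 19.3 and 19.9 RPKM with vehicle. Both GDF10 values of Acsl4 were below both vehicle values, with a log2 fold change of -0.18 (95% interval -0.37 to 0.015, adjusted p = 0.825 in edgeR). It was -0.11 without GDF10 replicate 1, which had the lower GDF10 value, and -0.060 with the GC content trend removed. Without GDF10 replicate 2 only that lower GDF10 value was left, so the difference was larger. Acsl1, the main synthetase of adult muscle and fat, was much lower, at 1.46 and 1.13 RPKM with GDF10 and 1.56 and 1.74 RPKM with vehicle. Its groups did not overlap either, and its log2 fold change of -0.35 had an interval of -0.72 to 0.018 (unadjusted p = 0.0593, adjusted p = 0.825 in edgeR). Without GDF10 replicate 1 the Acsl1 value was -0.55, and without GDF10 replicate 2 it was -0.18. The ratio of Acsl3 to Acsl1 in RPKM was 20.1 and 20.2 with GDF10 and 16.1 and 14.8 with vehicle, and it was 8.81 to 12.1 over the 4 libraries with the longest transcripts as lengths. Acsl6, known mainly from brain and testis, had only 8 and 12 counts with GDF10 and 15 and 30 with vehicle. That gave the most negative log2 fold change of the list, -1.19, with an interval of -2.56 to 0.17, and it was -0.45 without vehicle replicate 2.

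The carnitine shuttle was present in full, with the liver-type isoform of its first enzyme as the main one. Cpt1a, carnitine palmitoyltransferase 1 of the outer membrane and the step that malonyl-CoA inhibits (ENSMUSG00000024900; mm10 chromosome 19, 3322334 to 3385733), had 19.0 and 21.8 RPKM with GDF10 and 20.8 and 21.5 RPKM with vehicle. The groups overlapped, and the log2 fold change was -0.053 with a standard error of 0.0870 (95% interval -0.26 to 0.15). Cpt1b, the isoform of adult skeletal and heart muscle (ENSMUSG00000078937; mm10 chromosome 15, 89416405 to 89425863), had 1.31 and 0.357 RPKM with GDF10 and 1.65 and 0.240 RPKM with vehicle. These levels rest on 132 and 42 counts with GDF10 and 199 and 24 with vehicle. Replicate 1 was thus the high library and replicate 2 the low one in both groups, and the highest CPM was 6.87 times the lowest. Its log2 fold change of -0.21 accordingly had an interval of -5.07 to 4.64, which covers large differences in both directions. Cpt1a exceeded Cpt1b per exon length in all 4 libraries, by 14.5- and 61.0-fold with GDF10 and by 12.6- and 89.3-fold with vehicle. Cpt1c, another gene of this family, is not a member but stands in a further list. Its mean over the 4 libraries was 1.99 RPKM, above the 0.889 RPKM of Cpt1b, and its log2 fold change was 0.13. Chkb, the choline kinase gene just upstream of Cpt1b on the same strand, had 997 and 1281 counts with GDF10 and 981 and 1202 with vehicle, so its replicate 1 libraries were the lower ones. Cpt2, the inner-membrane transferase, had 11.8 and 11.0 RPKM with GDF10 and 10.5 and 9.76 RPKM with vehicle, a log2 fold change of 0.17 (95% interval -0.071 to 0.42) with groups that did not overlap. Slc25a20, the carnitine-acylcarnitine carrier, and Crat, which forms acetylcarnitine, averaged 2.47 and 4.63 RPKM over the 4 libraries, and their log2 fold changes were 0.10 and -0.00048.

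The 4 acyl-CoA dehydrogenases, which open each turn of the spiral and differ in the chain length they take, were all expressed. Acadvl, for very long chains, had 44.1 and 42.2 RPKM with GDF10 and 40.4 and 40.7 RPKM with vehicle. Its groups did not overlap, but the log2 fold change was only 0.090 (95% interval -0.081 to 0.26). Acadl, for long chains, had 58.3 and 49.6 RPKM with GDF10 and 51.7 and 48.3 RPKM with vehicle, a log2 fold change of 0.11 with overlapping groups. Acadm, for medium chains, had 19.6 and 16.7 RPKM with GDF10 and 19.0 and 16.5 RPKM with vehicle, and its log2 fold change was 0.031. Acads, for short chains, differed more between replicate numbers than between groups, with 42.4 and 58.5 CPM with GDF10 and 40.9 and 59.4 CPM with vehicle. Here replicate 2 was the high library in both groups, opposite to Cpt1b, and the log2 fold change of 0.011 had an interval of -0.75 to 0.77.

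**Figure D3:**
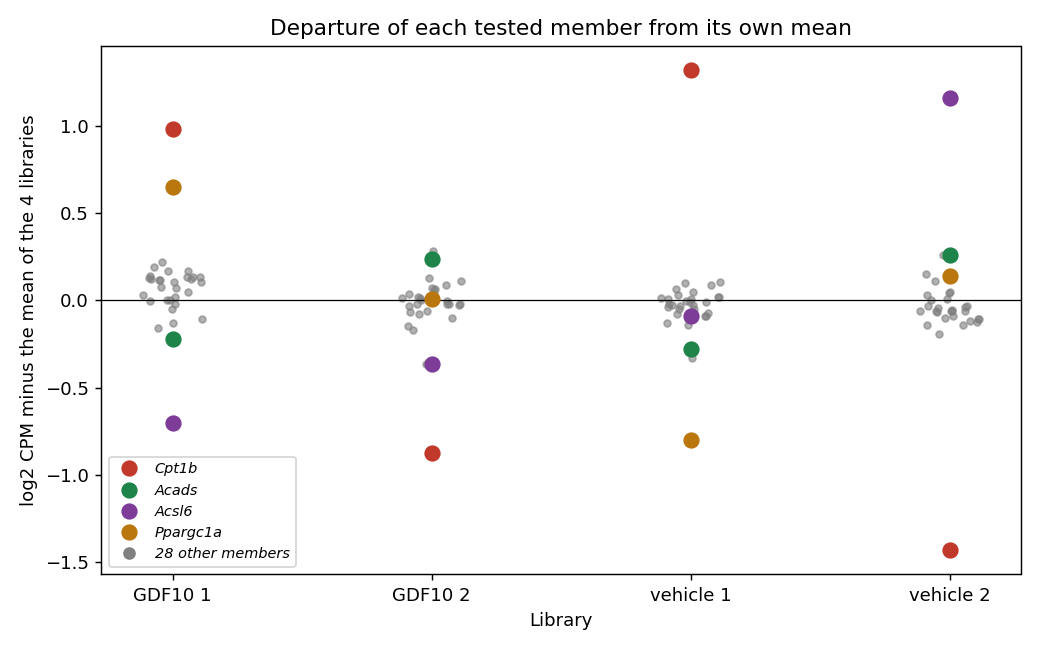
Departure of each tested gene from its own mean over the 4 libraries, in log2 CPM, with 4 genes coloured and the 28 other members in grey. Cpt1b and Acads split by replicate number in opposite directions, Acsl6 is high in vehicle 2, Ppargc1a is low in vehicle 1 and high in GDF10 1, and 26 of 32 members stay within 0.25 of their mean.

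Acadm and Acadvl also carried a nuclear receptor half-site, AGGTCA on either strand, in the 300 bases around their start given by RefSeq for GRCm38.p6, the assembly of mm10. They are shown because PPAR and ERR receptors bind elements built from this half-site. The stretches below are the 250 bases upstream of the RefSeq start on the minus strand, 5′ to 3′, at chr3:153944644-153944893 for Acadm and chr11:70015429-70015678 for Acadvl, and capitals mark the half-site, read as TGACCT in Acadm.
Acadm: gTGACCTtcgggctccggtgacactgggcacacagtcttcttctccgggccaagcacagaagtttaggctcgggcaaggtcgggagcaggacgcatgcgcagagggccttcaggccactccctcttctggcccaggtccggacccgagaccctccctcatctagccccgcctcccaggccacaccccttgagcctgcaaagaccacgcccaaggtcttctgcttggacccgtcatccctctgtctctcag
Acadvl: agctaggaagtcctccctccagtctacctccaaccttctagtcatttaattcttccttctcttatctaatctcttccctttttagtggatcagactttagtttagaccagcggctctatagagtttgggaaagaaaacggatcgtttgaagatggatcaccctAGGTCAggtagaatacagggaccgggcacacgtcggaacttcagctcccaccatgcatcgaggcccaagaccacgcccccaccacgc
Of the 34 genes 29 had such a window; Cpt1b, Acaa2, Decr1, Hsd17b4 and Crat are named only. The half-site was found in 6 of 29 members, Cpt1a, Acadvl, Acadm, Echs1, Acsl6 and Ucp3, or 20.7%, against 14.7% of the 10492 tested genes with a window and 18.1% of all 27025 genes in the table. The full PPAR response element, AGGTCA repeated after any 1 base, was found in 0 members and in 0.0381% of tested genes. The ERR element TCAAGGTCA, which contains the half-site, was found in 1 member, Acsl6, and in 0.324% of tested genes, and the SMAD element GTCTAGAC in 0 members and in 0.295%. A GC box, GGGCGG, was present in 21 members (72.4% against 67.1% of tested genes), a CCAAT box in 14 (48.3% against 43.2%) and a TATA box, TATAAA, in 0 (9.12% of tested genes). Both strands were read for each motif, and a match or its absence describes these windows only.

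Genes of the remaining steps of the spiral were all expressed and all had positive log2 fold changes, 0.044 to 0.15, none of which passed. Hadha and Hadhb encode the alpha and beta subunits of the trifunctional protein, which joins the hydratase, dehydrogenase and thiolase activities for long chains. Hadha had 20.6 and 20.5 RPKM with GDF10 and 19.0 and 18.4 RPKM with vehicle, so its groups did not overlap, and its log2 fold change was 0.14 (95% interval -0.024 to 0.30, adjusted p = 0.825 in edgeR). Hadhb had 9.82 and 9.67 RPKM with GDF10 and 9.68 and 9.22 RPKM with vehicle, a log2 fold change of 0.044 with overlapping groups. The ratio of Hadha to Hadhb in RPKM varied little, at 2.10 and 2.12 with GDF10 and 1.96 and 2.00 with vehicle, and it depended on the length used, being 2.83 to 3.07 with the longest transcripts. Both genes start from the same stretch of chromosome 5 in opposite directions, with 272 bases between their RefSeq starts. The part that lies outside both genes in RefSeq and in GENCODE, chr5:30155163-30155247 of GRCm38.p6, is shown on the plus strand as their shared upstream sequence, 5′ to 3′, with GC boxes in capitals.
Hadha-Hadhb gap: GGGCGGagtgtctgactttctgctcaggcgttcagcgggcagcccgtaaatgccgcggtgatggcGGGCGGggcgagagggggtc
Those 85 bases held 9 CG dinucleotides. Hadh, the dehydrogenase for shorter chains, had 16.0 and 14.1 RPKM with GDF10 and 13.4 and 13.7 RPKM with vehicle. Echs1, the short-chain hydratase, had 14.3 and 14.7 RPKM with GDF10 and 13.8 and 13.6 RPKM with vehicle. Neither gene's groups overlapped, and their log2 fold changes were 0.15 and 0.083. Without GDF10 replicate 1 the Hadh value was 0.057, and without GDF10 replicate 2 it was 0.24. For Acaa2, given above as the highest member, the log2 fold change was 0.10 (95% interval -0.087 to 0.29), and both GDF10 values were above both vehicle values. It was 0.027 without GDF10 replicate 1 and 0.18 without GDF10 replicate 2.

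Auxiliary enzymes let unsaturated fatty acids enter the spiral, and 1 of the 3 had the lowest p-value of the whole list. Eci1, a mitochondrial enoyl-CoA isomerase (ENSMUSG00000024132; mm10 chromosome 17, 24426641 to 24439348), had 19.2 and 18.6 RPKM with GDF10 and 16.5 and 15.9 RPKM with vehicle. Both GDF10 libraries were higher than both vehicle libraries, with a log2 fold change of 0.23 and a standard error of 0.0900 (95% interval 0.016 to 0.44). The unadjusted p of 0.0385 did not survive adjustment (adjusted p = 0.825 in edgeR), and over the alternatives the adjusted p ran from 0.336 to 0.9999. Decr1, the mitochondrial dienoyl-CoA reductase, had 5.61 and 5.25 RPKM with GDF10 and 4.91 and 4.97 RPKM with vehicle, also without overlap (log2 fold change 0.14). Eci2, an isomerase found in mitochondria and peroxisomes, had 5.96 and 6.18 RPKM with GDF10 and 6.25 and 5.79 RPKM with vehicle, a log2 fold change of 0.012 with overlapping groups.

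Electron transfer genes showed little difference. Etfa and Etfb, the subunits of the electron transfer flavoprotein, had log2 fold changes of 0.041 and 0.13, both with overlapping groups. Etfa had 55.5 and 48.6 RPKM with GDF10 and 52.3 and 48.9 RPKM with vehicle, and Etfb had 48.3 and 52.7 RPKM with GDF10 and 43.6 and 48.5 RPKM with vehicle. Etfdh, which passes the electrons on to ubiquinone, had the smallest departures from its mean of the tested members, with 6.79 and 6.65 RPKM with GDF10 and 6.86 and 6.96 RPKM with vehicle. Its groups did not overlap, and the log2 fold change was -0.039 (95% interval -0.24 to 0.16).

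Of the peroxisomal enzymes, which shorten chains too long for mitochondria, Hsd17b4 had 28.1 and 24.7 RPKM with GDF10 and 25.4 and 25.3 RPKM with vehicle, with overlapping groups and a log2 fold change of 0.057. Acaa1a, a peroxisomal thiolase, had 12.6 and 10.8 RPKM with GDF10 and 10.6 and 9.46 RPKM with vehicle, a log2 fold change of 0.23 (95% interval -0.032 to 0.49) with groups that did not overlap. The Acaa1a value was 0.11 without GDF10 replicate 1 and 0.15 without vehicle replicate 2. It was 0.33 without GDF10 replicate 2 and 0.31 without vehicle replicate 1. Acaa1a has a near-identical copy, Acaa1b, whose log2 fold change was -0.33, and Acaa1a shares exon bases with Myd88, so its counts are uncertain.

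Among the regulators, the delta receptor was expressed and the alpha receptor was not detected. Ppara, the receptor that drives these genes in liver (ENSMUSG00000022383; mm10 chromosome 15, 85734983 to 85802819), had 0 counts in all 4 libraries and was not tested; an upper limit of 3 counts corresponds to 0.0219 to 0.0264 RPKM. Ppard, the PPAR of skeletal muscle, had 10.7 and 11.2 RPKM with GDF10 and 11.0 and 11.4 RPKM with vehicle (log2 fold change -0.034, 95% interval -0.22 to 0.15). Ppargc1a, which encodes PGC-1alpha, had only 19 and 14 counts with GDF10 and 8 and 13 with vehicle. These groups did not overlap in counts but did in CPM, and the log2 fold change of 0.65 had an interval of -0.68 to 1.98. It was 0.29 without GDF10 replicate 1, 0.23 without vehicle replicate 1 and 1.19 without vehicle replicate 2. Pdk4, a kinase that switches off pyruvate dehydrogenase and a known PPAR target, had 21.9 and 20.1 RPKM with GDF10 and 20.6 and 18.9 RPKM with vehicle (log2 fold change 0.087, 95% interval -0.13 to 0.30), with overlapping groups.

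Acot2, a mitochondrial thioesterase that frees fatty acids from coenzyme A, had 4.27 and 4.83 RPKM with GDF10 and 3.16 and 3.80 RPKM with vehicle. These levels rest on 281 and 370 counts with GDF10 and 248 and 247 with vehicle. Both GDF10 values were the higher ones, with a log2 fold change of 0.39 and a standard error of 0.165 (unadjusted p = 0.04997, adjusted p = 0.825 in edgeR), and over the alternatives its adjusted p ran from 0.548 to 0.9999. Its near-identical neighbour Acot1 may share its reads, which leaves this value uncertain, and Acot1 itself had a log2 fold change of 0.27. Ucp2, an uncoupling protein of many tissues, had 3.67 and 3.03 RPKM with GDF10 and 3.08 and 3.74 RPKM with vehicle, with overlapping groups and a log2 fold change of -0.024. Ucp3, its muscle paralogue, had 2 and 2 counts with GDF10 and 3 and 2 with vehicle and was not tested. The genes are neighbours on chromosome 7 in the same orientation, with 6904 bases from the end of Ucp3 to the start of Ucp2. Their upstream bases, up to the first annotated start in RefSeq or GENCODE, are shown because one neighbour was expressed and the other was near 0. They run 5′ to 3′ on the plus strand of GRCm38.p6, chr7:100493108-100493336 for Ucp2 and chr7:100472741-100472989 for Ucp3, with CG dinucleotides in capitals.
Ucp2: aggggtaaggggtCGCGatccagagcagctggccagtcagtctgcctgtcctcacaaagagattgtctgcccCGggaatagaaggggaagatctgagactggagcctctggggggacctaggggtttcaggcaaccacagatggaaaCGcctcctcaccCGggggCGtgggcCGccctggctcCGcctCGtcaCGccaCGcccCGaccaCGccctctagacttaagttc
Ucp3: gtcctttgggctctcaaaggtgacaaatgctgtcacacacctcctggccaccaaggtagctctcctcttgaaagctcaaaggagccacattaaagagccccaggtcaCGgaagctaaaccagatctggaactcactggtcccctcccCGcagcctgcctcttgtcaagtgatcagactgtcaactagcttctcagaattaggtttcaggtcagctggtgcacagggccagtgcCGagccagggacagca
Ucp2 had 13 CG dinucleotides in 229 bases and Ucp3 had 3 in 249 bases. Over 300-base windows, Ucp2 held 21 CG dinucleotides, Ucp3 and Ppargc1a 5 each, and Ppara 30. Acsl6, with few counts, had windows of 5, 36 and 1, and Acadvl, at a mean of 41.8 RPKM, had 9. The median over the members, from the highest window of each, was 17, against 22 over tested genes and 8 over all genes with a window. Any link between CG content and level was not tested.

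The wider pathway was followed with 6 further lists holding 98 genes, of which 97 were found and 84 tested, and again 0 passed in edgeR's test in either direction, beside 0.162% of all genes. DESeq2 and limma-voom also called 0 of them. An unadjusted p under 0.05 was reached by 3 of the 84 in edgeR, against 5.94% of all genes. All 3 were higher with GDF10, as were 2.44% of all genes at that p. DESeq2 and limma-voom each also gave 3, and the shares of all genes in those tools are not given. A positive log2 fold change was found in 55 of the 84, beside 50.8% of all genes, with a median of 0.044 beside 0.0029. Of 11 tested genes of carnitine supply and malonyl-CoA control, 7 were positive. Prkaa1, a catalytic subunit of AMP-activated kinase, had 24.7 and 25.4 RPKM with GDF10 and 28.2 and 27.8 RPKM with vehicle, a log2 fold change of -0.16 (edgeR, unadjusted p = 0.0549). Acacb, the acetyl-CoA carboxylase that supplies malonyl-CoA at the mitochondrial surface, had 10 and 16 counts with GDF10 and 6 and 6 with vehicle. Stk11, which encodes the kinase LKB1 upstream of AMPK, was the highest of that list in RPKM and had a log2 fold change of 0.035. Among the 16 other mitochondrial genes 12 were positive. Ech1, a dienoyl-CoA isomerase, had 24.6 and 26.2 RPKM with GDF10 and 21.2 and 20.8 RPKM with vehicle, and its log2 fold change was 0.27 (edgeR, unadjusted p = 0.0150, adjusted p = 0.815). Pccb, of propionyl-CoA carboxylase, and Hsd17b10, the highest of the list, had log2 fold changes of 0.21 and 0.20.

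Of 17 peroxisomal genes 12 were positive, with Acox3 at 0.19 and Ehhadh at 0.87 on the log2 scale, and Ehhadh had only 46 and 30 counts with GDF10 and 19 and 23 with vehicle. Pex5, the import receptor, was the highest and had a log2 fold change of 0.029. In the list of uptake, binding and lipolysis 10 of 16 tested genes were positive. Plin3, a lipid droplet coat gene, had 27.7 and 26.7 RPKM with GDF10 and 23.4 and 22.9 RPKM with vehicle (log2 fold change 0.23, unadjusted p = 0.0162, adjusted p = 0.815 in edgeR). Pnpla2, the adipose triglyceride lipase, had 10.6 and 10.1 RPKM with GDF10 and 8.72 and 8.08 RPKM with vehicle (log2 fold change 0.30, unadjusted p = 0.0203, adjusted p = 0.815 in edgeR). Plin2, another droplet coat gene and a PPAR target, was the highest of that list at a mean of 89.0 RPKM, with a log2 fold change of 0.044. Of the 18 genes in that list, Cd36 and Plin5 had 0 counts in all 4 libraries, and the other 16 were tested. Among other uptake genes of muscle, the transporter gene Slc27a1 averaged 57.5 RPKM, the lipoprotein lipase gene Lpl averaged 8.75 RPKM, and Fabp3, a fatty acid binding protein of heart and muscle, had 26 and 14 counts with GDF10 and 23 and 23 with vehicle. These 5 genes were named after their values were seen. In the list of other synthetases and thioesterases 7 of 10 tested genes were positive, with Acsf3 at 0.28, Acss2 at 0.23 and the highest gene, Acot7, at 0.028 on the log2 scale. PPAR partners and targets were evenly divided, 7 positive and 7 negative: Ncor1, a corepressor, and Pdk1 had log2 fold changes of -0.14 and -0.20, and Angptl4, a PPAR target and the highest of the list, had one of 0.050.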

How the data were processed

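RNA was sequenced from 4 libraries of C2C12 myoblasts, grouped by their titles. The deposited values are raw read counts per gene, in whole numbers and without normalization. The submitters' processing notes list FastQC 0.11.2, Trimmomatic 0.36 and HISAT2 2.0, and also bedtools 2.26.0, StringTie 1.3.3b, DESeq2 1.12.4 and build mm10, without their roles. How reads were assigned to genes, and whether strand was used, is not given in the sources used here. Of 51826 identifiers 51633 matched GENCODE M21, which gave symbols, positions and exon lengths. Reads of overlapping genes and close paralogues may have been split or misassigned, and 11 members (Acadvl, Hadha, Echs1, Acaa1a, Etfb, Etfdh, Acsl1, Acsl3, Acsl5, Eci2 and Crat) share exon bases with another counted gene, so their values are less certain.

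Counts were tested with edgeR 4.0.16 in R 4.3.3 (filterByExpr, TMM, robust quasi-likelihood fit, no covariates) over 15467 genes, which held at least 99.9% of counts. Replicates varied by 14.3%, from the common dispersion. Intervals are 95%, and CPM and RPKM use TMM-scaled library sizes, RPKM with the union of exons. The upper limit of 3 counts for a gene at 0 covers counting error only. The text names all 34 members and, from each further list, called genes or else the 2 of lowest p, and the highest by RPKM; other names were added after their values were seen. Members and lists were chosen with earlier results of these data known. Alternatives were other scalings, filters and tests (DESeq2 1.42.0, limma-voom and limma 3.58.1), a replicate block, omission of each library, summed overlapping genes, and log2 CPM (prior count 2) with exon length or GC trends removed by loess (span 0.3). The tests were tried on simulated data.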

Additional observations from a re-analysis of the deposited data

How the results depend on the processing

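No member passed in any of 17 alternative fits (542 values, lowest adjusted p 0.201, for Acsl4 without GDF10 replicate 2) or at adjusted p thresholds of 0.1 and 0.01. The number of all genes called was 65 with DESeq2, 11 with limma-voom, 9 without robust dispersions, 13 for summed overlapping genes and 6 at a threshold of 0.01, and ran from 27 to 224 when 1 library was left out, with 112 without GDF10 replicate 1, 224 without GDF10 replicate 2 and 44 without vehicle replicate 2; the cause was not tested. The median of the members ran from 0.030 to 0.14 with 1 library left out, the count of positive members from 20 to 28 over all fits, and the number at 1 RPKM or more from 28 to 30. Between libraries of the same replicate number, departures from the group means had a correlation of 0.070. With only 2 pairs this value cannot decide whether the replicate numbers pair the libraries. The replicate block gave 23 calls among all genes, 0 among members, and turned Cpt1b to 0.021. In 19 of 32 members the sign held in every fit. Signs turned in the other 13: with the exon length trend removed Cpt1a was 0.013, Cpt1b 0.086, Acads -0.0032, Etfdh 0.028, Ppard 0.033, Crat 0.021 and Ucp2 0.035; with the GC trend removed Cpt1b was 0.069, Acads -0.045 and Etfdh 0.022; in limma with no trend removed, chosen after seeing the data, Cpt1b was 0.10; summed with overlapping genes Etfdh was 0.0082 and Crat 0.11; Crat was 0.010 with upper quartile scaling and 0.0025 with no filter. With 1 library left out the log2 fold change ran from -0.16 to 0.044 for Cpt1a, -1.42 to 1.78 for Cpt1b, -0.010 to 0.22 for Acadl, -0.090 to 0.14 for Acadm, -0.24 to 0.30 for Acads, -0.059 to 0.14 for Etfa, -0.16 to 0.21 for Acsl3, -0.042 to 0.068 for Eci2, -0.040 to 0.15 for Hsd17b4, -0.11 to 0.11 for Crat and -0.17 to 0.12 for Ucp2. In these fits the lone library is assumed to vary like the other group. Depth limits Acsl6, Ppargc1a, Ucp3 and Ppara.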

Other observations

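Mgll, which encodes monoacylglycerol lipase and was named after its values were seen, split by replicate number in the same direction as Cpt1b. It had 50 and 14 counts with GDF10 and 57 and 18 with vehicle, so replicate 1 was the higher library in both groups. The cardiac natriuretic peptide gene Nppb, from the cardiomyocyte markers, had 12 and 0 counts with GDF10 and 12 and 0 with vehicle.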
